A study of Oncorhynchus mykiss with 12 samples.

Results

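The miR-100 and miR-99 family was followed in the liver of rainbow trout through 3 of its sequences: dre-miR-100-5p, dre-miR-99_R-1 and dre-miR-100-5p_R+1_1ss16AT. They were chosen by name from a table of 1696 small RNA sequences. The liver of 12 adult, wild type rainbow trout (Oncorhynchus mykiss, strain given in the labels as Walbaum) was compared between 3 groups of 4 fish, with 1 library per fish. Fasted fish (7, 8, 10 and 13) had no food for 4 days. The other fish were acutely refed, either with a meal without carbohydrate (noCHO, fish 20, 21, 31 and 33) or with a meal high in carbohydrate (highCHO, fish 38, 45, 49 and 50). The labels do not give the hours between the meal and sampling, and all groups shared strain, genotype, tissue and protocol.

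MicroRNAs of about this size sit in an Argonaute protein and pair with messenger RNAs mainly through their seed, the bases next to the 5′ end, which lowers the output of the bound messenger. The miR-99 and miR-100 family is conserved across vertebrates, and miR-100 is among the most ancient animal miRNAs. In mammalian cells its described targets include the kinase mTOR, its partner Raptor and the IGF1 receptor, members of the pathway by which insulin and amino acids drive growth and metabolism. In vertebrate genomes, genes of this family stand beside let-7 and miR-125 genes.

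The sequences below, as the authors' deposited table gives them in DNA letters, are shown because the names do not tell which miRNA each is. Capitals mark the seed (bases 2 to 8, counted from the 5′ end) and base 16.
dre-miR-100-5p: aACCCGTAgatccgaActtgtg
ssa-miR-100a-5p_R+1: aACCCGTAgatccgaActtgtgt
dre-miR-99_R-1: aACCCGTAgatccgaTcttgt
dre-miR-100-5p_R+1_1ss16AT: aACCCGTAgatccgaTcttgtga

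All 4 sequences have the seed ACCCGTA. Compared with dre-miR-100-5p, the substitution A16T was the only difference of dre-miR-99_R-1 over 21 nt, and the only difference of dre-miR-100-5p_R+1_1ss16AT over 22 nt. The latter carries the name of miR-100, but over 21 nt it had 0 substitutions from dre-miR-99_R-1 and ended in 2 further bases, ga. It was therefore counted here as a longer form of miR-99, the long miR-99 form. The second sequence shown, ssa-miR-100a-5p_R+1, is not among the 3 members. It is dre-miR-100-5p with 1 more base at the 3′ end, named for the salmon miRNA, and is described beside them. The prefixes name the fish in which the matched miRNA is registered (dre zebrafish, ssa Atlantic salmon, ccr common carp, ipu channel catfish, ola medaka, fru pufferfish).

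The rest of the family was small. In all, 15 sequences were named for miR-99 or miR-100 or had this seed, 10 from the 5p arm and 5 from the 3p arm of the hairpin. A hairpin precursor yields 1 miRNA from each arm, and here the 5p arm held nearly all of the counts. Summed over the 12 libraries, dre-miR-100-5p had 3686969 counts, ssa-miR-100a-5p_R+1 163479, dre-miR-99_R-1 106338 and the long miR-99 form 6062. The most abundant 3p sequence, ssa-miR-100a-3p_L-1, had 1232 counts and dre-miR-100-2-3p had 420. A miR-99 sequence that starts 3 bases earlier, ccr-miR-99_L+3R+2, had 384 counts, and since its bases 2 to 8 are shifted it does not present the family seed. These 7 sequences were among the 340 of 1696 that passed the filter on low counts.

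The other 8 family sequences were near the limit of detection and were not tested. The 3p forms ssa-miR-100a-3p_R+1, ssa-miR-99-3p and ssa-miR-100a-2-3p_R-1 had 52, 9 and 2 counts over all libraries. Among 5p forms, ssa-miR-99-5p_R+5_1ss16TA had 30 counts, ola-miR-100_L+1R+4_1ss17AC 10.2, ipu-miR-99b_2ss6GA22GA 2.33, ipu-miR-100_R+5 1.70 and dre-miR-99_R+4_1ss16TA 0.20. The first and the last of these are named for miR-99 but carry the miR-100 base at position 16. None of the 708 predicted candidates in the table had the family seed (0 of 708).

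miR-100 was the second most abundant miRNA of the liver. On average dre-miR-100-5p made up 21.0 ± 5.03% of the counts of a library (SD, n = 12), against 28.7% for the hepatocyte miRNA miR-122 (dre-miR-122_R-1) and 3.86% for the next sequence, dre-miR-30e-5p_R+2. The sequences that followed were dre-miR-199-5p with 3.75% and dre-let-7a with 3.55%. dre-miR-100-5p ranked second in 11 libraries. In highCHO fish 45 it ranked first, with 31.1% of counts against 23.4% for miR-122. By rank in each library, dre-miR-99_R-1 stood between 15 and 33, and the long miR-99 form between 66 and 126.

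**Figure D1:**
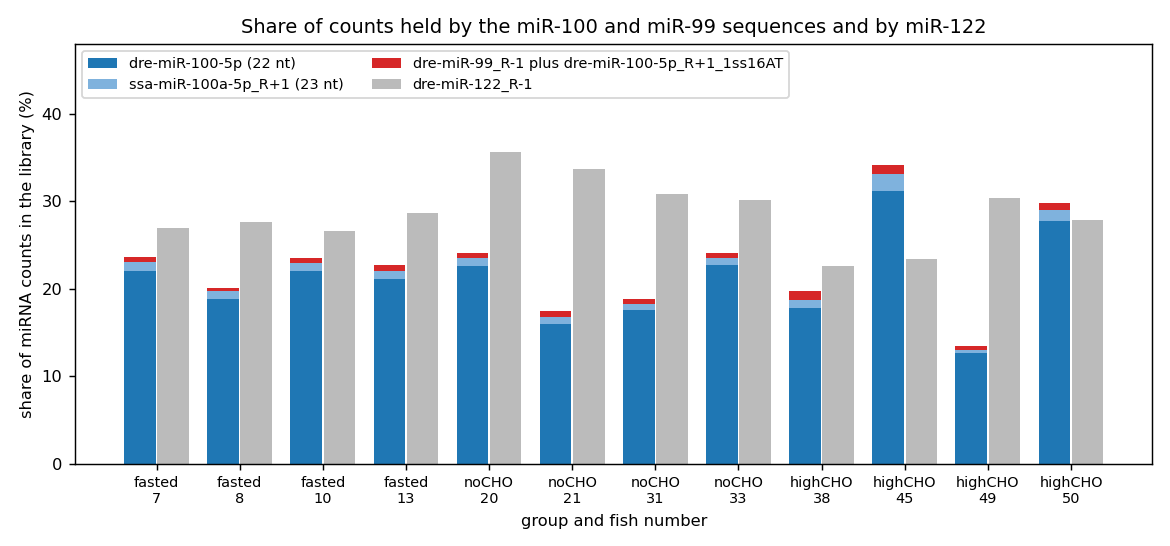
Share of miRNA counts (%, vertical axis) in each of the 12 libraries, ordered by group and fish number; stacked bars show the miR-100 and miR-99 sequences and grey bars miR-122. miR-100 exceeds miR-122 in highCHO fish 45 (31.1% against 23.4%), and the stack is lowest in highCHO fish 49.

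Of all counts, the 3 members together held 21.5 ± 1.62% in the fasted group, 20.3 ± 3.398% after the noCHO meal and 23.1 ± 8.76% after the highCHO meal (SD, n = 4 each). The group means lay within 1 SD of each other, while the spread differed: fasted fish ranged from 19.2 to 22.7%, noCHO fish from 16.7 to 23.2% and highCHO fish from 13.0% (fish 49) to 32.2% (fish 45). Counting error was far smaller than these distances. In fish 49, the shallowest library, the share of dre-miR-100-5p was 12.6% with a 95% exact (Clopper-Pearson) interval of 12.5 to 12.8%, which covers counting error only. Because liver is a mixture of cells, fewer cells of a type and less of the miRNA per cell cannot be told apart.

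Libraries held 197684 counts (highCHO fish 49) to 3057706 counts (noCHO fish 33), with fasted fish 8 next to the lowest at 694063. Cell type lists were summed over all sequences with their names, tested or not. CPM is the count set against the library total, on a scale common to all libraries. The hepatocyte list (miR-122, miR-192 and miR-194, 31 sequences, 12 tested) summed to 252070 to 382242 CPM over the libraries. A pancreas list (miR-216, miR-217, miR-375 and miR-7, 26 sequences, 5 tested) summed to 16145 CPM in highCHO fish 38 and to at most 376 CPM elsewhere. An epithelial list (miR-200, miR-141, miR-429, miR-203 and miR-205, 29 sequences, 7 tested) summed to 1690 to 7833 CPM in highCHO fish, highest in fish 38 and next in fish 49 with 4296. Its sum was 2156 to 3116 CPM in fasted and 1516 to 2219 CPM in noCHO fish. The fibroblast list was also highest in fish 38, at 85667 CPM against 50527 to 70876 elsewhere. A leukocyte list (miR-142, miR-146, miR-223, miR-150 and miR-155, 33 sequences, 13 tested) ran from 15940 CPM in noCHO fish 20 to 60342.5 CPM in highCHO fish 49. Inserts under 15 nt made up 14.2 to 32.2% of adapter-containing reads in highCHO libraries, highest in fish 49, and 6.18 to 13.0% in the others. Nothing in the labels names a batch. By raw reads, all fasted libraries and noCHO 20 and 21 lay under 8000000 reads and the rest above, so fasted and highCHO fish share no such set. That limit was set here and does not stand at a wide gap. The libraries nearest to it were fasted fish 13 with 7947369 and highCHO fish 50 with 8104175 raw reads. Whether the sets were prepared apart is not known.

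The level of dre-miR-100-5p, in CPM scaled between libraries by the TMM method, was 210238 in fasted fish 7, 156610 in fish 8, 205372 in fish 10 and 198795 in fish 13. In noCHO fish it was 275556 in fish 20, 138147 in fish 21, 177288 in fish 31 and 253311 in fish 33. In highCHO fish it was 159469 in fish 38, 384706 in fish 45, 110363 in fish 49 and 353601 in fish 50. The fasted fish were close together, and both the highest pair (45 and 50) and the lowest fish (49) of the study had eaten the high-carbohydrate meal, so all groups overlapped. Group means were 192754 ± 24548, 211076 ± 64295 and 252035 ± 137303 CPM in fasted, noCHO and highCHO fish (SD, n = 4 each).

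The level of dre-miR-99_R-1 was 5392 CPM in fasted fish 7, 2791 in fish 8, 4929 in fish 10 and 5942 in fish 13. In noCHO fish it was 6596 CPM in fish 20, 6077 in fish 21, 5146 in fish 31 and 5240 in fish 33. In highCHO fish it was 8426 CPM in fish 38, 12008 in fish 45, 3537 in fish 49 and 8966 in fish 50. For miR-99, 3 of the 4 highCHO fish lay above every fasted and every noCHO fish, and fish 49 lay below all noCHO fish and above the lowest fasted fish alone. Group means were 4763 ± 1378, 5765 ± 694 and 8234 ± 3506 CPM in fasted, noCHO and highCHO fish (SD, n = 4 each).

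The long miR-99 form had 360 CPM in fasted fish 7, 140 in fish 8, 277 in fish 10 and 297 in fish 13. In noCHO fish it had 413 CPM in fish 20, 324 in fish 21, 292 in fish 31 and 272 in fish 33. In highCHO fish it had 559 CPM in fish 38, 689 in fish 45, 132.7 in fish 49 and 488 in fish 50. Again 3 of 4 highCHO fish lay above all fish of both other groups, and fish 49 below all of them. The value in fish 49 rests on 29.8 counts. Group means were 268 ± 92.7, 325 ± 62.3 and 467 ± 238 CPM (SD, n = 4 each).

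**Figure D2:**
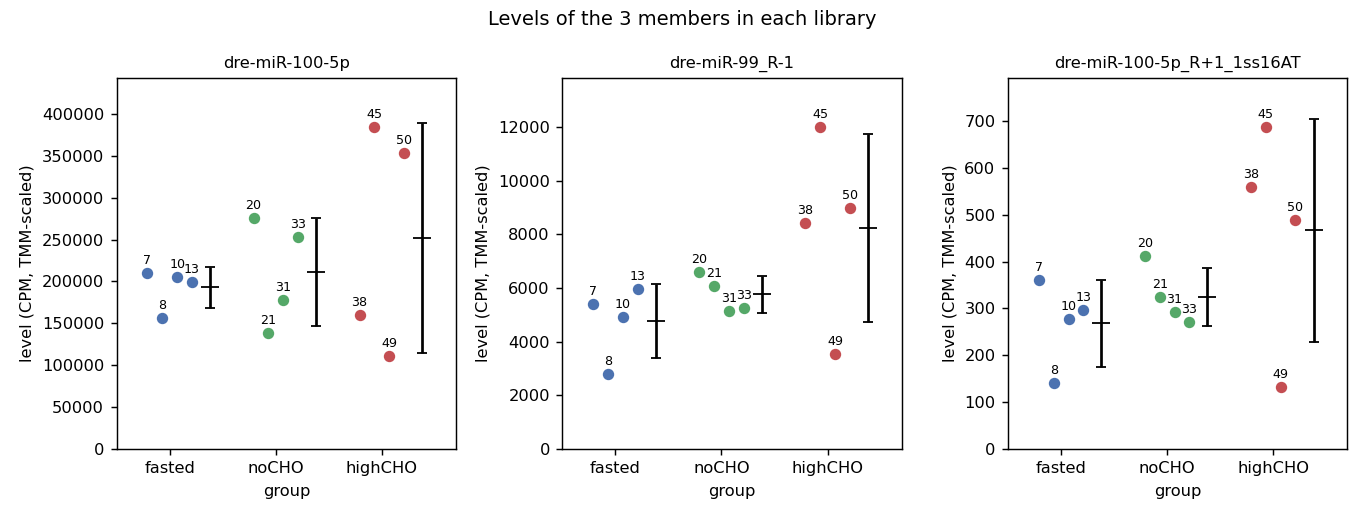
Level of each member (CPM after TMM scaling, vertical axes starting at 0) in the 12 libraries by group, with fish numbers beside the points and the group mean ± SD (n = 4) to the right. In both miR-99 panels highCHO fish 38, 45 and 50 lie above all fasted and noCHO fish, and fish 49 lies low in all 3 panels.

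The first comparison asked what a meal without carbohydrate did against fasting. No member passed the edgeR test (adjusted p under 0.05) in noCHO against fasted fish, where 0% of the 340 tested sequences did. With edgeR, 23 sequences had an unadjusted p under 0.05, and DESeq2 called 2. The log2 change was 0.13 for dre-miR-100-5p (SE 0.36, 95% interval -0.65 to 0.91, adjusted p = 0.998). It was 0.28 for dre-miR-99_R-1 (SE 0.32, interval -0.42 to 0.97, adjusted p = 0.993) and 0.27 for the long form (SE 0.41, interval -0.62 to 1.17, adjusted p = 0.993). The intervals reach 0.91 to 1.17 log2 units upward, so these values do not show that the family stayed level. The value of dre-miR-100-5p had no firm sign: it was -0.09 when libraries were scaled by their total counts. Within the libraries under 8000000 raw reads (2 noCHO against 4 fasted), the log2 changes were 0.08, 0.42 and 0.45 in the same order, with adjusted p of 0.898, 0.484 and 0.590.

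The meal high in carbohydrate was next compared with fasting. No member passed in highCHO against fasted fish, where 6.18% of the tested sequences were called. All 3 members, ssa-miR-100a-5p_R+1 and ccr-miR-99_L+3R+2 had their highest group mean after this meal, and the tested 3p sequences did not. dre-miR-99_R-1 was 1.73-fold the fasted level (log2 0.79, SE 0.32, interval 0.09 to 1.49, unadjusted p = 0.0291, adjusted p = 0.149), with 3 of 4 highCHO fish above all fasted fish. The long form was 1.75-fold the fasted level (log2 0.81, SE 0.41, interval -0.09 to 1.70, adjusted p = 0.234). dre-miR-100-5p was 1.31-fold the fasted level (log2 0.39, SE 0.36, interval -0.39 to 1.17, adjusted p = 0.558). In size, the miR-99 values stood at the 77.5th and 78.1st percentile of the absolute log2 changes of the 340 sequences and that of miR-100 at the 46.9th, while the median change of all sequences was 0.03.

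The size of the miR-99 change and its call depended on single libraries. Without highCHO fish 49, the log2 change against fasting was 1.13 for dre-miR-99_R-1 (SE 0.25, adjusted p = 0.0240) and 1.19 for the long form (SE 0.29, adjusted p = 0.0359). Both passed the test, while dre-miR-100-5p had 0.74 (adjusted p = 0.149) and did not. That fit called 25 of 358 tested sequences, against 21 of 340 with all libraries. With both shallowest libraries left out, fasted fish 8 as well, neither form passed (0.93 with adjusted p = 0.0529 and 0.96 with adjusted p = 0.0666). Of all tested sequences, 5 of 355 were called there. Without highCHO fish 45 alone, the changes were smaller, at 0.56 for dre-miR-99_R-1 (adjusted p = 0.330) and 0.57 for the long form (adjusted p = 0.503). By the Dixon test, fish 49 was not flagged as an outlier among the highCHO levels of dre-miR-100-5p, dre-miR-99_R-1 or the long form (Q 0.18, 0.58 and 0.64, critical value 0.829). With 4 values the critical value is high, so this does not show that fish 49 was typical. Over all settings tried, the adjusted p of dre-miR-99_R-1 in this comparison ran from 0.0240 to 0.330. The pancreas, epithelial and fibroblast lists were highest in fish 38, and without that fish the change of dre-miR-99_R-1 was 0.78 and that of the long form 0.73 (adjusted p = 0.170 and 0.314). The percentage of short inserts was also higher in every highCHO library than in any other library. Its part therefore cannot be separated from that of the meal. With this percentage as a term in the fit, dre-miR-99_R-1 had a log2 change of 1.29 (SE 0.45, adjusted p = 0.142). The long form had one of 1.60 (SE 0.56, adjusted p = 0.142) and dre-miR-100-5p one of 1.102 (SE 0.52, adjusted p = 0.230).

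**Figure D3:**
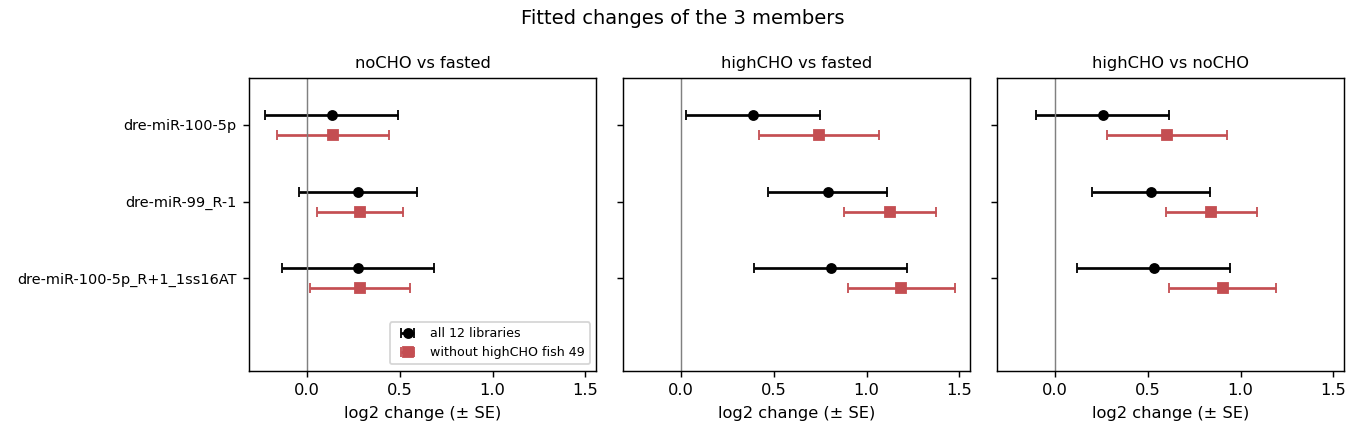
Fitted log2 change (horizontal axis, point ± SE) of the 3 members in 3 comparisons, for all 12 libraries (black) and without highCHO fish 49 (red). In highCHO against fasted, the miR-99 forms move from 0.79 to 1.13 and from 0.81 to 1.19 without that fish. Without highCHO fish 45, which is not drawn, they are 0.56 and 0.57. Sample-total scaling is not drawn, and under it dre-miR-100-5p in noCHO against fasted is -0.09.

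The 2 meals were then compared with each other; the rest of their composition is not given in the labels. No member passed in highCHO against noCHO fish, where 2.35% of the tested sequences were called. The log2 change was 0.26 for dre-miR-100-5p (SE 0.36, interval -0.52 to 1.04, adjusted p = 0.676), 0.51 for dre-miR-99_R-1 (SE 0.32, interval -0.18 to 1.21, adjusted p = 0.350) and 0.53 for the long form (SE 0.41, interval -0.36 to 1.43, adjusted p = 0.431). For dre-miR-100-5p the value depended on fish 45, without which it was -0.03. With the percentage of short inserts as a term, the 3 values were 1.003, 1.01 and 1.32 in the same order, and none passed (adjusted p = 0.381, 0.321 and 0.275). Here too that term cannot be separated from the meal, as the percentages of the 2 groups did not overlap. Within the libraries over 8000000 raw reads (4 highCHO against 2 noCHO), the changes were 0.27, 0.71 and 0.78, with adjusted p of 0.844, 0.514 and 0.578. The comparisons share groups, so their values are not independent of each other.

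In both refed groups together against fasted fish, no member passed, and 2.06% of the tested sequences were called. The log2 change was 0.26 for dre-miR-100-5p (SE 0.31, adjusted p = 0.730), 0.53 for dre-miR-99_R-1 (SE 0.28, adjusted p = 0.378) and 0.54 for the long form (SE 0.36, adjusted p = 0.516). Under sample-total scaling the value of dre-miR-100-5p was -0.00070, so its sign was not determined.

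The spread of miR-100 between fish also differed between the groups, which is given as a description without a test. The SD of its log2 level was 0.20 in fasted, 0.46 in noCHO and 0.88 in highCHO fish, or the 20.4th, 60.7th and 79.3rd percentile of the SDs of the 340 tested sequences in that group. The median SD of all tested sequences also went from 0.32 through 0.39 to 0.50, so part of that order was shared by the whole table. For dre-miR-99_R-1 the SDs were 0.49, 0.17 and 0.76, with the noCHO fish closest together.

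The balance of miR-99 to miR-100 within a library does not depend on scaling. The 2 miR-99 forms made up 2.50 ± 0.503% of the members' summed counts during the fast, 3.004 ± 1.01% after the noCHO meal and 3.59 ± 1.20% after the highCHO meal (SD, n = 4 each). The longer miR-100 form ssa-miR-100a-5p_R+1 is not a member and was left out of that sum. Fasted fish 8 had the lowest share, 1.84%. The highest were 5.33% in highCHO fish 38 and 4.43% in noCHO fish 21, and the groups overlapped. There were 17.7 (fish 38) to 53.4 (fish 8) counts of dre-miR-100-5p for each count of the 2 miR-99 forms together. Fish 45 and 50, which were high in both miRNAs, had a usual balance of 3.19% and 2.604%, whereas fish 38 was high in miR-99 with miR-100 at 159469 CPM, close to the lowest fasted fish.

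The longer 3′ ends made up similar shares in the 3 groups. The 23-nt form ssa-miR-100a-5p_R+1 held 4.25 ± 0.259% of the sum of both miR-100 lengths in the fasted group, 3.93 ± 0.550% with noCHO and 4.50 ± 1.148% with highCHO (SD, n = 4 each), from 3.07% in fish 49 to 5.87% in fish 45. Its level was 8527 ± 994, 8399 ± 1864 and 12907 ± 9137 CPM, with 3493 CPM in fish 49 and 24002 CPM in fish 45. The log2 change in highCHO against fasted fish was 0.60 (SE 0.43, adjusted p = 0.414) and did not pass. The long form was 5.28 ± 0.706%, 5.32 ± 0.429% and 5.10 ± 1.102% of the sum of both miR-99 lengths in the 3 groups.

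The 3p arm is the strand of the miR-100 duplex that is usually discarded when the 5p strand is loaded. There were 1767 ± 461 counts of the miR-100 5p arm for each 3p count in the fasted group, 2283 ± 502 with noCHO and 3287 ± 2116 with highCHO (SD, n = 4 each), from 725 in fish 49 to 5400 in fish 45. These ratios rest on 35.5 to 365 counts of the 3p arm per library. ssa-miR-100a-3p_L-1 (cAAGCTTGattctataggtct, capitals on bases 2 to 8, shown because its levels ran against those of miR-99) had 79.2, 117, 88.9 and 72.1 CPM in fasted fish 7, 8, 10 and 13. It had 60.9, 46.7, 76.3 and 96.1 CPM in noCHO fish 20, 21, 31 and 33, and 40.1, 45.1, 137 and 55.4 CPM in highCHO fish 38, 45, 49 and 50. The highest libraries were fish 49 and fish 8, the same ones in which miR-99 was lowest, and 3 of 4 highCHO fish lay below all fasted fish. Fish 49 and fish 8 were also the shallowest libraries, with 31 and 98 counts of this sequence. Its log2 change in highCHO against fasted fish was -0.44 (SE 0.38, interval -1.27 to 0.38, adjusted p = 0.510), which did not pass. The other 3p sequence, dre-miR-100-2-3p, had 24.9 ± 9.30, 24.6 ± 9.66 and 23.8 ± 4.73 CPM (SD, n = 4 each), with a log2 change of -0.01 (SE 0.34, adjusted p = 0.977).

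Across the 12 libraries, the log2 level of ssa-miR-100a-3p_L-1 had a Pearson r of -0.88 and a Spearman rho of -0.91 with dre-miR-99_R-1. Of the 339 other tested sequences it was the last in likeness to miR-99, and r was -0.88 again without the 2 libraries farthest from the median of miR-99 and -0.86 without fish 49. No r was computed without both of the shallowest libraries, fish 49 and fish 8, so the part of depth was not tested. Toward ssa-miR-100a-5p_R+1, a 5p sequence that shares the salmon name miR-100a, r was -0.59 and rho -0.40. The names do not tell whether both come from the same precursor. Toward dre-miR-100-5p, r was -0.41 and rho -0.32, and r was 0.06 without the 2 libraries farthest from the median of miR-100. These values describe 12 libraries that share composition, since levels are parts of a whole. Without fish 49, the percentage of short inserts had an r of 0.82 with dre-miR-99_R-1 and of -0.75 with ssa-miR-100a-3p_L-1, and over all 12 libraries 0.12 and 0.07. The part of insert length in this relation was not tested.

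**Figure D4:**
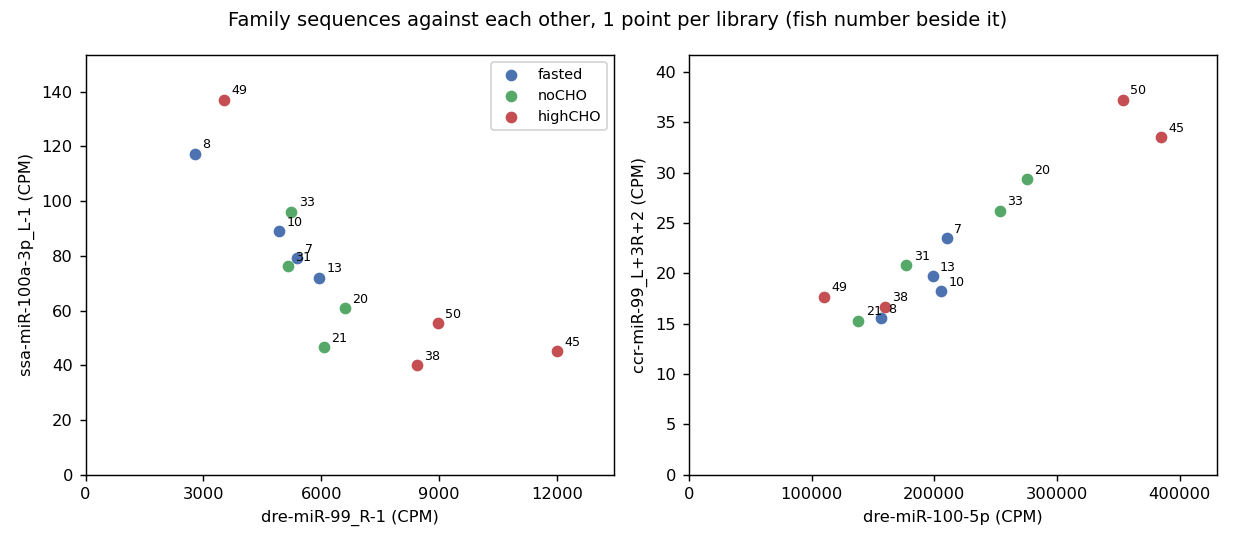
Left, ssa-miR-100a-3p_L-1 (CPM, vertical) against dre-miR-99_R-1 (CPM, horizontal); right, ccr-miR-99_L+3R+2 against dre-miR-100-5p; 1 point per library with its fish number, coloured by group. Fish 49 and 8 lie at the upper left of the left panel, and fish 45 and 50 at the upper right of the right panel.

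The sequences closest to dre-miR-100-5p over the 12 libraries were its own longer form ssa-miR-100a-5p_R+1 (r 0.94, rho 0.94) and ccr-miR-99_L+3R+2 (r 0.92, rho 0.92), a miR-99 sequence by name. Then came dre-miR-199-5p (r 0.80, rho 0.90), ola-let-7g-p3 (r 0.71, rho 0.62) and fru-miR-125b_R-1 (r 0.71, rho 0.80). Without fish 45 and 49, the farthest libraries, these r were 0.92, 0.96, 0.91, 0.53 and 0.86. For comparison, the median r of dre-miR-100-5p over the 339 other sequences was -0.06, and its r with dre-miR-99_R-1 was 0.69, or 0.42 without those libraries. The early-starting miR-99 sequence, which carries the bases of miR-99, had an r of 0.92 with miR-100 and of 0.63 with dre-miR-99_R-1. It had 15.6 to 23.5 CPM in fasted, 15.3 to 29.3 in noCHO and 16.7 to 37.3 in highCHO fish, few counts per library, and the difference between these correlations was not tested.

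The sequences closest to dre-miR-99_R-1 were the long miR-99 form (r 0.96, rho 0.94), ssa-miR-128-2-5p (r 0.84, rho 0.90), ssa-mir-30e-1-p3 (r 0.83, rho 0.78), ssa-miR-100a-5p_R+1 (r 0.78, rho 0.66) and ssa-miR-128-1-5p_1ss12CT (r 0.77, rho 0.80). Without fish 45 and 8, the r were 0.94, 0.76, 0.76, 0.77 and 0.47. Of these, ssa-miR-128-2-5p (2.21, SE 0.46, adjusted p = 0.0138) and ssa-miR-128-1-5p_1ss12CT (1.52, SE 0.41, adjusted p = 0.0496) rose by log2 in highCHO against fasted fish, from 6.86 to 32.2 and from 4.40 to 12.9 CPM. In that comparison 6.18% of all tested sequences were called. Both miR-128 sequences were picked by likeness to dre-miR-99_R-1 over these same libraries, so their rise is no separate support for one of miR-99. In fits that each left out 1 library, the first was called in 10 of 12, all but those without fasted fish 8 or 10, and the second in 2 of 12. Both rest on few counts, as does ssa-mir-30e-1-p3. The lowest highCHO level was 8.84 CPM for both miR-128 sequences and 4.42 CPM for ssa-mir-30e-1-p3. In highCHO fish 49, 3 counts are 15.2 CPM before scaling. The lowest fasted levels of the miR-128 sequences were 3.42 and 1.20 CPM, and 3 counts are 4.32 CPM in fasted fish 8. The long form itself had r 0.96 with dre-miR-99_R-1, 0.79 with ssa-miR-100a-5p_R+1 and 0.69 with dre-miR-100-5p, against a median of -0.02 over the 339 other sequences. The difference between these correlations was not tested.

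**Figure D5:**
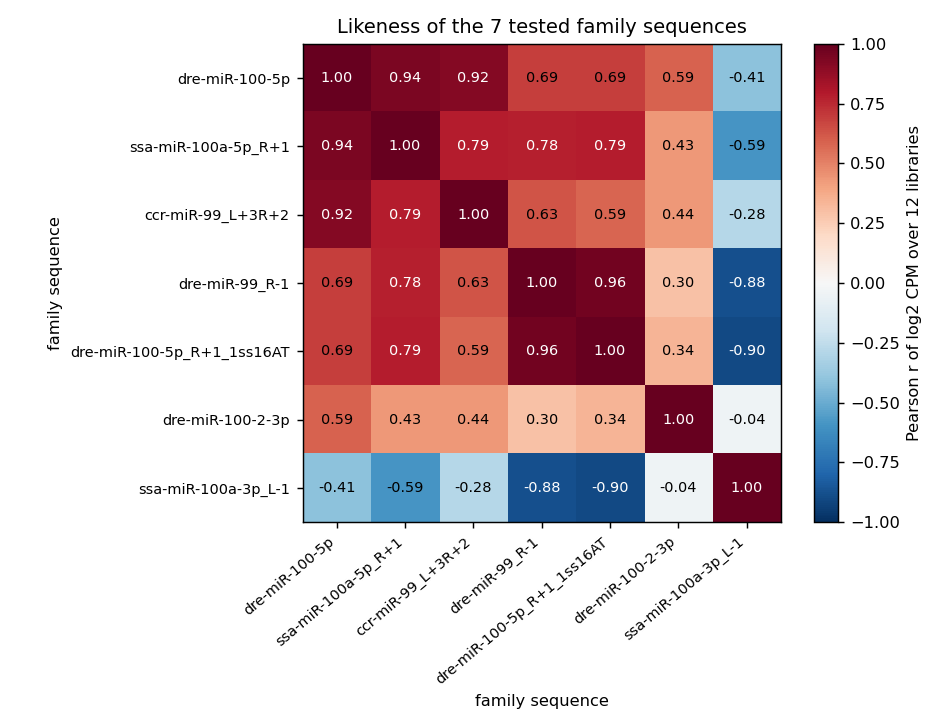
Pearson r of log2 CPM over 12 libraries between the 7 tested family sequences (both axes; red positive, blue negative, value in each cell). The miR-100 forms and the early-starting ccr-miR-99_L+3R+2 lie together, both miR-99 forms lie together at 0.96, and ssa-miR-100a-3p_L-1 is negative to both (-0.88 and -0.90).

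Of the families that stand beside miR-99 and miR-100 genes in vertebrate genomes, 48 sequences carried the names let-7a, let-7c or miR-125 and 11 were tested. In highCHO against fasted fish 10 of the 11 had a log2 change above 0, against 51.2% of all tested sequences, with a median of 0.51 against 0.03. In this comparison 2 rose and 0 fell, where 6.18% of all tested sequences were called, 11 higher and 10 lower. dre-let-7c-5p_1ss19GC, a let-7c variant, rose from 327 to 1520 CPM (log2 2.22, SE 0.30, adjusted p = 0.00119), and was called in 12 of 12 fits that each left out 1 library. pol-let-7a-3p_R+1_1ss3AG, a 3p sequence, rose from 96.4 to 262 CPM (log2 1.44, SE 0.30, adjusted p = 0.0138), a call lost without fasted fish 8 or 10. Both also rose in refed against fasted fish (log2 1.79, adjusted p = 0.00756, in 10 of 12 such fits, and log2 1.20, adjusted p = 0.0456, in 2 of 12). There 2.06% of all tested sequences were called, 5 higher and 2 lower. None of the 11 passed in noCHO against fasted or in highCHO against noCHO fish, where 0% and 2.35% of all were called. dre-let-7c-5p_1ss19GC was also among the 4 most abundant of the 11, which were chosen by name, as their gene positions in trout were not examined. The others of these 4 did not pass in highCHO against fasted fish: dre-let-7a had 0.52 (adjusted p = 0.0902), ipu-miR-125a 0.51 (adjusted p = 0.119) and fru-miR-125b_R-1 0.15 (adjusted p = 0.765). let-7 variants differ by few bases, so the division of reads among them is uncertain.

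Other miRNAs studied in insulin or mTOR signalling (names with miR-7, miR-26, miR-29, miR-33, miR-101, miR-103, miR-107, miR-143 or miR-199) gave 91 sequences, 32 of them tested. In highCHO against fasted fish 0 rose and 3 fell, where 6.18% of all 340 tested sequences were called, 11 higher and 10 lower. The median was -0.26 against 0.03 for all. All 3 were miR-101 sequences: dre-miR-101a (log2 -0.81, adjusted p = 0.0434), ola-miR-101b-5p (-0.99, adjusted p = 0.0434) and fru-miR-101b_2ss21AC22GT (-1.24, adjusted p = 0.0496). Those calls held in 2, 4 and 4 of the 12 fits that each left out 1 library. In highCHO against noCHO fish 0 rose and 1 fell, dre-miR-199-3p_L-1 (-0.73, adjusted p = 0.0194, in 4 of 12 fits). In that comparison 2.35% of all tested sequences were called, 4 higher and 4 lower. None of the 32 passed in noCHO or in all refed against fasted fish, where 0% and 2.06% of all were called. The other abundant sequences of this list, dre-miR-199-5p (0.16), ssa-miR-26a-5p (0.32) and ccr-miR-143 (0.53), did not pass in highCHO against fasted fish (adjusted p = 0.714, 0.239 and 0.189). The names miR-143 and miR-199 are also markers of fibroblasts and miR-7 of pancreas, and the part of cell mixture was not tested.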

How the data were processed

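Small RNA (15 to 50 nt per the labels) was extracted from flash-frozen liver with Trizol, made into libraries with a TruSeq RNA kit and read on a GAIIx sequencer, per the labels. The authors deposited, per library, a count of raw, adapter-containing, short-insert and mappable reads. A second table held, for each sequence, an estimated count per library and a normalized signal. The signal deposited by the authors equalled the estimated count divided by 1 parameter per library, with zeros written as 0.001, and was not used for tests. Of the members' 36 estimated counts, 7 were whole. miR-99 and miR-100 differ by 1 base, so how reads were assigned to these names is uncertain. Bowtie 1.1.1 is named in the submitters' processing notes without its role. How fractional counts arose and which genome build and which miRNA database release were used is not stated in the labels or headers, and genome positions were not analysed here.

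For testing, estimated counts were rounded to whole numbers and fitted in edgeR 4.0.16 (R 4.3.3): TMM scaling, expression filter by group (340 sequences with 99.87% of counts), 1 quasi-likelihood fit of 12 libraries with 9 residual degrees of freedom, two-sided, Benjamini-Hochberg adjustment over all 340, threshold 0.05. The SE was derived from the log2 change and its F statistic. log2 levels used a prior count of 1. Replicates are different fish by number. Sample columns outside the groups numbered 0, as did pairs of identical libraries.

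The members and lists were chosen with earlier results of these data known. Named sequences were the members, all others named for miR-99 or miR-100 or with the seed, the 5 most alike to dre-miR-100-5p and to dre-miR-99_R-1, the 5 most abundant, and the 4 most abundant and all called sequences of 2 lists. The test was checked on simulated counts that had the same spread for every sequence and group, unlike these data. The alternatives were other scalings, filters, DESeq2 1.42.0, a robust fit, other sets of features and libraries, library terms, and each library left out.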

Additional observations from a re-analysis of the deposited data

How the results depend on the processing

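Apart from leaving out single libraries, 147 alternative values for the members' tests kept direction and call and 2 did not. Those kept include all those under DESeq2, a robust fit, other filters and library terms. No member passed in the main fit, so a fit with less power keeps the call in any case. In highCHO against fasted fish, which share no library set, the set term raised the SE of dre-miR-99_R-1 from 0.32 to 0.57. Size was not counted. In that comparison dre-miR-100-5p went from 0.39 to 0.09 under sample-total scaling and to 1.102 with the short-insert term. The 2 exceptions were dre-miR-100-5p under sample-total scaling, at -0.091 in noCHO and -0.00070 in all refed against fasted fish. That scaling moved the median log2 change of all sequences to -0.17, -0.19 and -0.17 in noCHO, highCHO and all refed against fasted fish. With 1 library left out, 140 values kept direction and call and 4 did not. dre-miR-100-5p ranged from -0.0069 to 0.23 in noCHO against fasted and from -0.031 to 0.60 in highCHO against noCHO, changing sign without noCHO fish 33 and highCHO fish 45. In highCHO against fasted, dre-miR-99_R-1 ranged from 0.56 to 1.13 and the long miR-99 form from 0.57 to 1.19. Both passed without highCHO fish 49, in a fit that called 25 of 358 tested sequences, and the cause was not tested. With miR-122 left out of the total, the members' share was 29.7 ± 2.12% in fasted, 30.2 ± 5.31% in noCHO and 31.1 ± 11.4% in highCHO fish (SD, n = 4 each). Leaving out the 2 shallowest libraries was added after seeing the data. Summing by name gives no value for the long form, and a fit of only the groups compared gives none for all refed fish. No paired analysis was possible because the groups share no fish numbers. Depth limits the long form and the 3p arm in highCHO fish 49, where 3 counts are 15.2 CPM before scaling.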
